A study of Mus musculus with 7 samples.

Results

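The cells compared here were the GFP-negative cells of Osr1-GFP knock-in mouse embryos (strain C57BL6J), taken at embryonic day 9.5 (E9.5) and set against those taken at E8.5. In this line the green fluorescent protein reports the Osr1 locus, which encodes a transcription factor of the intermediate and lateral plate mesoderm, so the GFP-negative cells are everything the reporter did not mark. For E9.5 the caudal portion was dissected before sorting, whereas the E8.5 source is given as the embryo, with no dissected part named. Both populations carried the knock-in, both were collected by flow sorting, and each was hybridised to 1 array, so the comparison rests on 2 of the 7 arrays of the study. The other 5 arrays held GFP-positive cells, 1 of them from E8.5 and the rest from E9.5 or E11.5. How many embryos were pooled, and whether they carried 1 or 2 copies of the knock-in, is not given in the sources used here.

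Between these stages the mouse embryo turns, closes its neural tube, adds somites from the tail bud and begins to make neurons and neural crest derivatives. Its first red cells are primitive erythroid cells, which arise in the yolk sac and enter the circulation around the start of this interval. Hox genes, which give position along the body axis, are switched on in the order of their place in 4 clusters, with high-numbered paralog groups last and most caudal. The E9.5 sample was the caudal portion, and the E8.5 sample was not described as dissected. Stage, dissected part and array slide therefore changed together: the E9.5 GFP-negative array lay on slide 2 and the E8.5 GFP-negative array on slide 1, and their effects cannot be told apart.

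Expression was read with single-colour Agilent arrays of 62976 spots, 59305 of them not controls, from 10 ng of total RNA per population after amplification. The level of a gene is the log2 processed signal minus the log2 of that array's 75th percentile, which was 300.0 on the E9.5 array and 230.7 on the E8.5 array. Spots well above background made up 73.8% of the E9.5 array and 56.2% of the E8.5 array, and no spot was saturated. A gene was counted as measured if it was well above background on at least 1 of the 2 arrays. Where it was not on the other, its difference is a bound ("at least"), set by the lowest level well above background, -4.43 at E9.5 and -3.46 at E8.5. With 1 array per population no test is possible, no p-value is given, and differences have no replicate check. Within an array, 255 probes printed on 10 spots each and above background on both arrays had a median spot SD of 0.09 at either stage and of 0.13 for the difference, which covers spot-to-spot error only. Osr1 itself was not well above background on either GFP-negative array, at -4.38 at E9.5 and -3.23 at E8.5, against 0.85 on the E8.5 GFP-positive array.

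Of 25396 genes on the array, 19622 were measured. At least 4-fold higher levels at E9.5 were seen for 311 genes (1.58%), 115 of them as bounds, and at least 4-fold lower levels for 318 (1.62%), 104 of them as bounds. Thus 49.4% of the calls were on the higher side. Without scaling, the median of all genes shifted by 0.35 (log2) and the higher side held 75.3% of the calls, while quantile normalization gave it 39.8%. At 2-fold, 1767 genes (9.01%) were higher and 1235 (6.29%) were lower. These 2 shares are the background for every gene list below, whose members are counted at 2-fold. The median difference over all measured genes was 0.0, and Pearson's r between the arrays over the measured genes was 0.949, which describes these 2 arrays only.

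**Figure D1:**
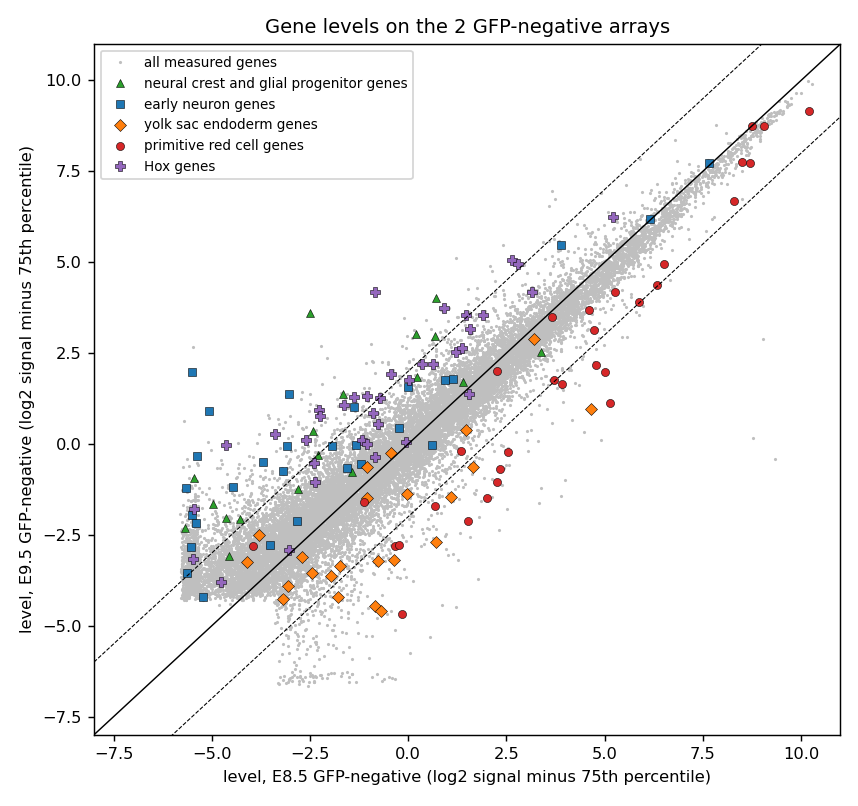
Level of each measured gene on the E9.5 GFP-negative array (y axis) against the E8.5 GFP-negative array (x axis), in log2 signal minus the array's 75th percentile. The solid line marks equal levels and the dashed lines 4-fold differences. Red cell and yolk sac endoderm genes lie mostly below the solid line, and Hox, early neuron and neural crest genes mostly above it.

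Genes of primitive red cells had the lowest median of the 39 gene lists. Of 31 measured members, 22 were at least 2-fold lower at E9.5 and none was 2-fold higher, with a median of -1.96, and 13 were at least 4-fold lower. In bulk samples fewer cells of a type and less RNA per cell cannot be told apart. The transcription factors and most of the globins named here stood apart in size. Gata1, the master regulator of red cell genes, stood at 1.13 at E9.5 and 5.13 at E8.5, 16.1-fold lower. Gfi1b, a repressor that acts with Gata1, stood at -2.11 at E9.5 and 1.53 at E8.5, 12.5-fold lower. Nfe2, a bZIP factor of globin loci, was 11.3-fold lower, and Klf1, an activator of globin genes, was 9.86-fold lower (-1.04 at E9.5 and 2.26 at E8.5). The erythropoietin receptor gene Epor was 8.17-fold lower and the carbonic anhydrase gene Car2 8.11-fold lower. Tmod1, which caps actin filaments of the red cell membrane skeleton, was at least 19.4-fold lower, since it was not well above background at E9.5.

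Globins differed less. Hba-x, the embryonic alpha-like globin, stood at 6.68 at E9.5 and 8.30 at E8.5, a difference of -1.62. Hbb-bh1, an embryonic beta-like globin, stood at 9.15 at E9.5 and 10.20 at E8.5, a difference of -1.04; its processed signal was 170863 at E9.5 and 270568 at E8.5, against array maxima of 301890 and 285333. Hbb-y, the other embryonic beta-like globin, was at 8.74 at E9.5 and 8.76 at E8.5, so that its difference of -0.02 lay within the spot SD. The adult alpha globins Hba-a1 and Hba-a2 differed by -0.96 and -0.74, but they are near-identical copies whose probes cannot be taken to separate them. Of the heme pathway, Alas2, the first enzyme in erythroid cells, differed by -1.58, Cpox by -1.98 and Fech by -1.96, and the mitochondrial iron importer Slc25a37 by -1.98. The band 3 anion exchanger gene Slc4a1 differed by -1.54, and Ahsp, the chaperone of free alpha globin, by -2.60. Summed over the list, signal was 2103 times the 75th percentile at E9.5 and 3717 times at E8.5. Sptb, a spectrin gene, was the only measured member above 0, at 0.65 as a bound.

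**Figure D2:**
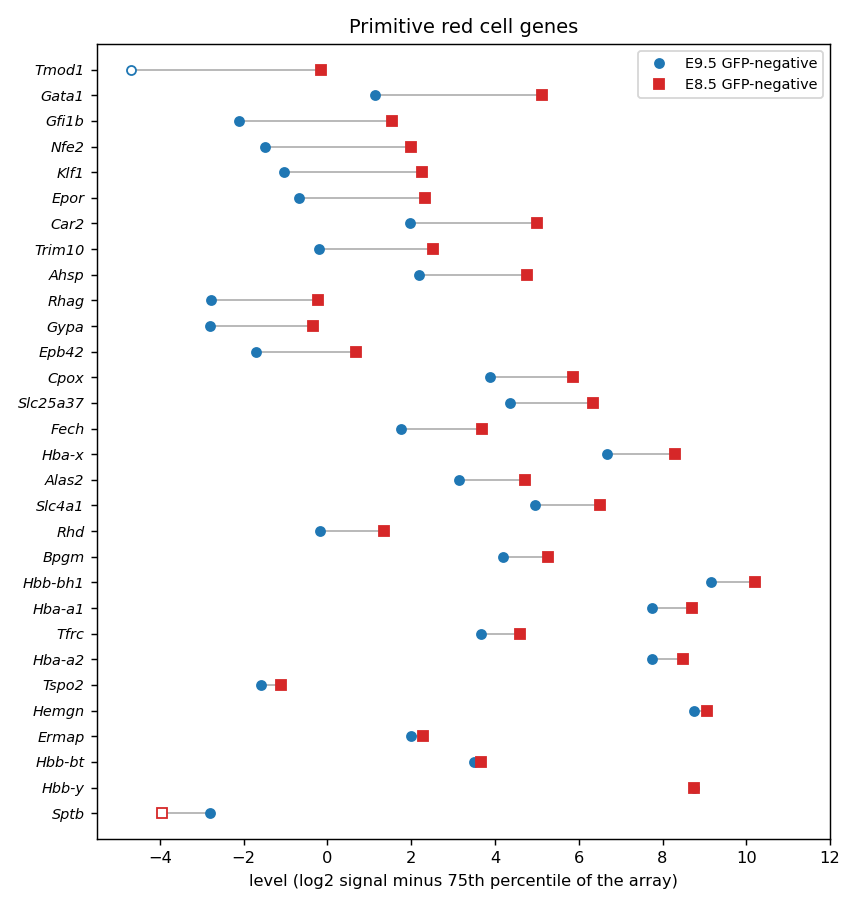
Levels of measured primitive red cell genes on the E9.5 GFP-negative array (circles) and the E8.5 GFP-negative array (squares), in log2 signal minus the array's 75th percentile, ordered by difference with the most negative at the top. Open symbols were not well above background. Transcription factor genes such as Gata1 and Klf1 are 9.86-fold or more lower at E9.5, and Hbb-y is level, its circle hidden by its square.

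Because Gata1 binds short GATA sites, promoters of this list were searched for them. RefSeq (build GRCm38.p6) gave 23 promoters of 22 list members, each of 300 bases around the start site, and 32851 promoters for all genes. AGATAA on either strand was in 7 of 23 (30.4%) against 11.2% of all promoters. The sequence CCACACCC, searched on both strands as a Klf1-type site, was in 0 of 23 against 3.56% of all, and TATAAA, searched on the forward strand only, was in 3 of 23 (13%) against 8.32%. TGATAA on either strand was searched after these results and the sequences had been seen. It was in 10 of 23 (43.5%) against 9.05%, a share that was chosen with the letters in view. The 10 include Hba-a1 and Hba-a2, whose windows hold almost the same sequence. A match is a description and not a site of binding, and the shares carry no test. Matches occurred both in genes with large differences and in genes that were level: of the 4 promoters printed below, Klf1 was 9.86-fold, Epor 8.17-fold and Alas2 2.99-fold lower, while Hbb-y differed by -0.02 on the log2 scale. Gata1 and Tmod1, with the largest differences, had neither GATA motif in their windows. The promoters lie at chr8:84901732-84902031 (+ strand), chr9:21963527-21963826 (- strand), chrX:150547167-150547466 (+ strand) and chr7:103853158-103853457 (- strand). Capitals mark AGATAA or TGATAA, read on either strand, and each is printed 5′ to 3′ on the gene's strand.
Klf1: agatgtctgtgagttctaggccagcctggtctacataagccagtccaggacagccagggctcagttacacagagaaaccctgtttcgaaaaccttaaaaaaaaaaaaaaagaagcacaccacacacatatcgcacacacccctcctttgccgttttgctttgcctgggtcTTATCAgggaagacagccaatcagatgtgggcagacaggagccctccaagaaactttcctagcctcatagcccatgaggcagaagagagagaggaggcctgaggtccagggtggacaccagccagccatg
Epor: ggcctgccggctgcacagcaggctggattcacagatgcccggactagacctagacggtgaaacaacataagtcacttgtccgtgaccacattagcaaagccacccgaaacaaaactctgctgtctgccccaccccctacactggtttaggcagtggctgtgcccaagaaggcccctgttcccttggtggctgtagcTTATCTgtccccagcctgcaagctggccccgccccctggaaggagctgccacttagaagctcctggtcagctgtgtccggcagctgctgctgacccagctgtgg
Alas2: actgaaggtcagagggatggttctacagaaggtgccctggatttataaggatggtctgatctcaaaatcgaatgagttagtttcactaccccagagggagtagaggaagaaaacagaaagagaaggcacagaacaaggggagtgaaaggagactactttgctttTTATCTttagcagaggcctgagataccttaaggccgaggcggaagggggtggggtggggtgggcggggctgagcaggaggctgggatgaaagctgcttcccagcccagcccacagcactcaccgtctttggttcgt
Hbb-y: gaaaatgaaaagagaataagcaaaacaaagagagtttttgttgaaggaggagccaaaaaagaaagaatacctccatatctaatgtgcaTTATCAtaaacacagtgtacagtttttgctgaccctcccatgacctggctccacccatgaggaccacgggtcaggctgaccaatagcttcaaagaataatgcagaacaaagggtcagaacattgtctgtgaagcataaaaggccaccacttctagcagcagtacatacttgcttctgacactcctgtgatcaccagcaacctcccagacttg

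Other blood genes were mixed. Of 19 measured genes of blood progenitors, macrophages and platelets, 3 passed 2-fold on each side, with a median of 0.0. Those lower were progenitor factors: Tal1 (0.58 at E9.5 and 3.66 at E8.5, 8.45-fold), its partner Lmo2 (5.91-fold) and Runx1 (at least 3.25-fold), which is needed for definitive blood. Those higher were Pf4, a platelet chemokine, at 0.41 at E9.5 and -2.68 at E8.5 (8.49-fold), Tyrobp, a myeloid signalling adaptor (at least 7.31-fold), and Cebpa, a myeloid factor (2.25-fold).

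Endothelial genes were lower for 9 of 21 measured members and higher for none, with a median of -0.84. Lyve1, a hyaluronan receptor, was at least 31.9-fold lower, not being above background at E9.5 against a level of 0.56 at E8.5. Erg, Tek, Sox17 and Etv2, regulators or receptors of endothelium, differed by -2.29, -2.06, -1.99 and -1.89. Pan-endothelial Pecam1 differed by -0.15 and Kdr, the main Vegf receptor, by -0.51, so the difference did not extend over the whole list. Of 21 measured heart muscle genes 3 were lower and none higher (median -0.44): Hand1 at -2.55, Popdc2 at -2.24 and Tbx5 at -1.18. Contractile genes such as Tnnt2 (0.18) and Myl4 (-0.38) stayed inside 2-fold.

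Genes of yolk sac endoderm, the extraembryonic layer that makes serum proteins, were lower for 15 of 23 measured members and higher for none, with a median of -1.34. Rhox5, an X-linked homeobox gene, stood at 0.96 at E9.5 and 4.65 at E8.5, 12.9-fold lower. Apob and Ttr, which encode a lipoprotein and a thyroid hormone carrier, were at least 13.4-fold and at least 12.1-fold lower. Spp2 was 10.6-fold lower and Apoa1, the main protein of high-density lipoprotein, 7.07-fold lower (-3.19 at E9.5 and -0.37 at E8.5). Afp, alpha-fetoprotein, was 2.53-fold lower. The summed signal of the list was 15.2 times the 75th percentile at E9.5 and 50.8 times at E8.5. Of the 9 measured trophoblast genes, 3 were lower and none higher: Plac1 (8.88-fold), Hand1 and Cdx2. Hand1 is also counted among the heart genes and Cdx2 among the tail bud genes. The trophoblast genes Tpbpa and Elf5 were not above background on either array. Gut endoderm genes were lower for 6 and higher for 2 of 23 (median 0.08). Spink1 was 11.4-fold lower, Hhex, a factor of the anterior endoderm and liver bud, 5.76-fold lower, and the simple-epithelium keratins Krt8 and Krt18 5.59-fold and 3.59-fold lower. Foxa2, which marks endoderm and floor plate, was at 3.11 at E9.5 and 2.86 at E8.5. How far the yolk sac and red cell genes contribute to the other differences was not tested.

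**Figure D3:**
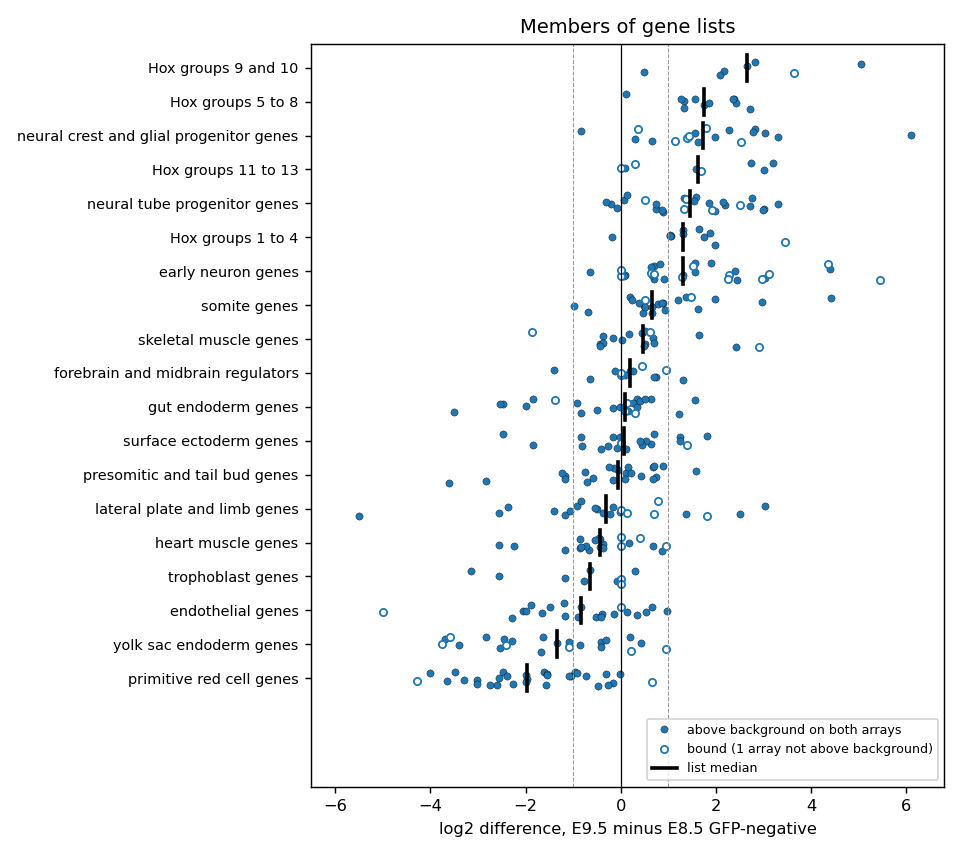
Log2 difference, E9.5 minus E8.5 GFP-negative, for each measured member of 19 gene lists; filled points were above background on both arrays, open points are bounds, and bars are list medians. Dashed lines mark 2-fold. Hox, neural crest and neural tube lists have medians of 1.31 or more, and red cell and yolk sac endoderm lists have medians of -1.96 and -1.34.

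Hox genes were higher at E9.5 almost throughout. Of 37 measured of 39 on the array, 31 were at least 2-fold higher at E9.5, 14 of them at least 4-fold, and none was 2-fold lower, with a median of 1.75. By paralog group, 10 of 11 were higher in groups 1 to 4 (median 1.31), 10 of 11 in groups 5 to 8 (1.75), 6 of 7 in groups 9 and 10 (2.66), and 5 of 8 in groups 11 to 13 (1.63). Pearson's r of the difference with the paralog group was 0.17 over the 37 genes, which share both arrays. All 8 measured HoxB and all 9 HoxD genes were higher, with medians of 1.66 and 2.35, as were 8 of 11 HoxA and 6 of 9 HoxC genes, with medians of 1.32 and 1.68. Hoxc10 had the largest difference, at 4.19 at E9.5 and -0.85 at E8.5 (32.9-fold). Its neighbour in paralog group, Hoxd10, was at least 12.5-fold higher and Hoxa10 6.30-fold higher. Among the last groups, Hoxd11, Hoxd12 and Hoxd13 were 9.21-fold, 6.61-fold and 7.99-fold higher, while Hoxa13 differed by 0.09 and Hoxc11 was barely above background at E9.5. Hoxc6 (5.06 at E9.5 and 2.64 at E8.5) and Hoxc9 (3.73 at E9.5 and 0.91 at E8.5) were among those with high levels at E9.5.

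A stage step in GFP-positive cells, E9.5 other GFP-positive minus E8.5 GFP-positive, shared no array with this comparison and lay on slide 1 alone. At E9.5 the GFP-positive cells were split into Itga8-positive, Pdgfra-negative (gated) cells and the others, whereas the E8.5 label names no split. The step therefore leaves out the gated E9.5 cells and sets a part against a whole. There 9 of 37 measured Hox genes passed 2-fold on the higher side and 3 on the lower, with a median of 0.10, against 15% and 3.51% of all genes. Groups 1 to 4 had a median of -0.34 there and groups 11 to 13 one of 1.45. Hoxd11 differed by 3.20 in the GFP-negative and 3.30 in the GFP-positive cells, whereas Hoxb9 differed by 2.16 and -0.56. On the gated E9.5 array Hoxd11 stood at -1.19 and Hoxb9 at 4.87, against -1.22 and 4.48 on the E8.5 GFP-positive array. Whether the 2 steps differ was not tested.

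**Figure D4:**
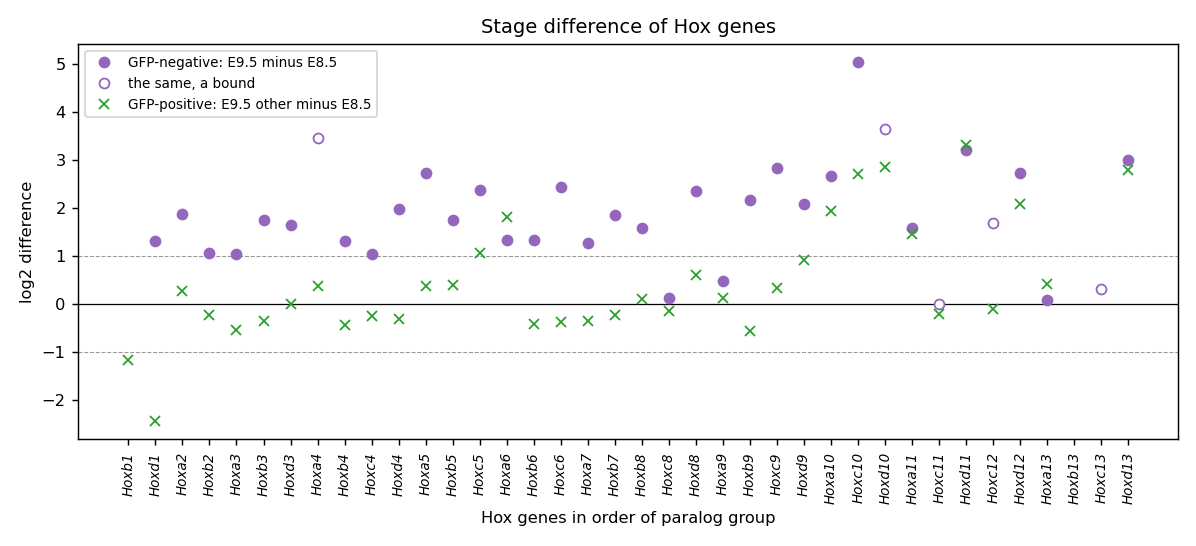
Log2 difference of Hox genes, in order of paralog group, between E9.5 and E8.5 in GFP-negative cells (circles, open for bounds) and between E9.5 other and E8.5 GFP-positive cells (crosses). Dashed lines mark 2-fold. Circles lie above 0 from group 1 to group 13 with few exceptions, and crosses reach 2-fold mostly in groups 10 and above.

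Neural genes were higher at E9.5. Of 26 measured neural tube progenitor genes, 16 passed 2-fold on the higher side and none on the lower (median 1.45), with a summed signal of 184 times the 75th percentile at E9.5 and 38.8 times at E8.5. Fabp7, a radial glia fatty acid carrier, stood at 4.0 at E9.5 and 0.70 at E8.5 (9.89-fold). Hes5, a Notch target that holds progenitors, stood at 6.73 at E9.5 and 3.74 at E8.5 (7.96-fold). Its signal alone made up most of the summed signal of the list at E9.5. Irx3, Olig3 and Nkx6-1, which mark domains along the back-to-belly axis of the neural tube, were 7.99-fold, 6.74-fold and 4.56-fold higher, and the progenitor factor Sox2 6.58-fold. Sox1, also a progenitor factor, differed by 0.07. Of 12 measured hindbrain and otic genes, 5 were higher and none lower, while of 13 measured forebrain and midbrain genes 1 was higher and 1 lower (median 0.20), with Lhx2 at 1.31 and Hesx1 at -1.41.

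Early neuron genes were higher for 16 of 29 measured members and lower for none, with a median of 1.30. Nhlh2, a bHLH factor of young neurons, was at least 43.3-fold higher (1.98 at E9.5, not above background at E8.5). Neurog2, which starts neurogenesis, was at least 20.5-fold higher. Dcx, a microtubule protein of migrating neurons, stood at 1.37 at E9.5 and -3.03 at E8.5 (21.2-fold). Isl1 and Lhx3, motor neuron factors, were 8.17-fold and at least 8.67-fold higher. Tubb3, neuronal tubulin, was 2.98-fold higher, while Gap43 (0.64) and Stmn2 (0.65) stayed inside 2-fold. Lhx1 differed by -0.64.

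Neural crest genes were higher for 14 of 18 measured members and lower for none, with a median of 1.72 and a summed signal of 64.1 times the 75th percentile at E9.5 and 20.1 times at E8.5. Tfap2b, a crest transcription factor, had the largest measured difference on the higher side, at 3.61 at E9.5 and -2.49 at E8.5 (68.5-fold). Sox9 was 7.01-fold, Ngfr, the low-affinity neurotrophin receptor, 4.85-fold, and Sox10 3.94-fold higher. Foxd3, an early crest factor, was at least 2.23-fold higher. Snai2, an early delamination factor, was the only member below 0, at -0.84.

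Of 23 measured somite genes, 7 were higher and none lower (median 0.65). Pax9 and Pax1, factors of the sclerotome that forms vertebrae, were 21.3-fold and 7.86-fold higher, Pax9 at 1.31 at E9.5 and -3.10 at E8.5. Pax3, of the dermomyotome, was 3.97-fold higher. Myog, which turns on muscle differentiation, was 5.34-fold higher and embryonic myosin Myh3 at least 7.49-fold, while Myod1 differed by 0.45. The Myod1 probe read 2.29 to 2.99 over all 7 arrays. Myf5 and Myf6 were not well above background on either GFP-negative array. Of 18 measured skeletal muscle genes 3 were higher and 1 lower, the last being Mylpf, at least 3.62-fold lower. Presomitic and tail bud genes, which feed the somites, were lower for 5 and higher for 1 of 23 (median -0.06). Fgf4 was 12.1-fold lower (-3.67 at E9.5 and -0.07 at E8.5), Cdx1 7.04-fold, Cdx4 2.34-fold, Cdx2 2.25-fold and Evx1 2.25-fold. T and Tbx6, of the tail bud and presomitic mesoderm, differed by -0.06 and 0.10, and Lfng, a cycling Notch modifier, was 3.00-fold higher.

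Of 22 measured lateral plate and limb genes, 4 were higher and 6 lower (median -0.30). Tbx4, a hindlimb factor, was the lowest, at -3.71 at E9.5 and 1.78 at E8.5 (45.0-fold). Pitx1, its upstream regulator in the hindlimb, was 5.17-fold lower. The E9.5 level of Tbx4 was near the lowest level well above background, -4.43. Which tissue gave the E8.5 signal was not tested. Isl1 and Wt1 were higher, Wt1 at 0.13 at E9.5 and -2.38 at E8.5 (5.70-fold). Kidney progenitor and duct genes, the tissue in which Osr1 acts, were higher for 2 of 13 measured members, Wt1 and Ret, and lower for 1, Gata3 (2.32-fold). Of 17 measured notochord and floor plate genes, 5 were higher, led by Col2a1 (8.87-fold), while Shh (-0.32) and T were level. Surface ectoderm genes were split, with 4 higher and 2 lower of 20 (median 0.06). The 2 lower were Krt8 and Krt18, also counted among the gut endoderm genes. The keratin gene Krt5 was 3.51-fold higher.

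Of the signalling lists, the Notch pathway had 7 of 15 members higher and none lower (median 0.76), among them the receptor Notch1 (4.33-fold, but 0.44 on the log2 scale by its other probe) and the target Heyl (at least 7.5-fold). Of 14 Hedgehog genes 6 were higher and 1 lower, with the co-receptor Gas1 4.43-fold (its other probes differed by only 0.27 and 0.38) and the effector Gli3 3.35-fold higher and Ptch1, a direct target, at 0.51. Of 15 retinoic acid genes 5 were higher and 1 lower, led by Cyp26b1 (at least 4.76-fold) and the binding protein Crabp2 (3.99-fold, 6.89 at E9.5 and 4.90 at E8.5), while the synthesis enzyme Aldh1a2 differed by -0.10. Of 12 Fgf targets 3 were higher and none lower, with Spry2 at 1.34 and Dusp6 at 1.02. Of 15 Wnt targets 3 were higher, Lef1 (3.37-fold), Ccnd1 (2.90-fold) and Lgr5 (2.14-fold), and 1 lower, Cdx1. The Bmp list had 2 higher and 1 lower of 16.

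Proliferation genes were level: none of 24 DNA replication and mitosis genes passed 2-fold in either direction, with a median of -0.22 and a range of levels that included Mcm6 at 8.20 at E9.5 and 8.55 at E8.5. Of 23 glycolysis and hypoxia genes, 1 was higher, Ldhb (2.07-fold), and 2 were lower, Hk1 (3.41-fold) and Pfkp (2.02-fold). Of 16 housekeeping genes, 2 were lower, among them Hprt, a purine salvage enzyme (2.06-fold).

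The largest differences over all genes included several read by 1 probe only. Among genes past 4-fold, 175 had another probe, and in 5 another probe lay more than 2-fold on the opposite side. Smaller opposite differences were not counted. Phlda2, an imprinted gene of placental growth, stood at -1.62 at E9.5 and 3.34 at E8.5 (31.2-fold lower), and the calcium pump gene Atp2a3 was 31.3-fold lower. Kcnj5, a potassium channel gene, was 24.1-fold lower, and Tex19.1, a germline and placental gene, 17.4-fold lower. On the higher side were Pantr1, a noncoding RNA gene (29.7-fold), the cell surface protease gene Fap (15.6-fold), the brain creatine kinase gene Ckb (14.9-fold, 5.12 at E9.5 and 1.22 at E8.5) and the ganglioside synthase gene St8sia1 (13-fold). Prdm8, a neural zinc-finger gene, was at least 69.7-fold higher, Mfsd2a at least 19.1-fold, the ligand gene Fgf5 at least 16.9-fold and Bmpr1b, a Bmp receptor gene, at least 12.4-fold. Prdm8, Tfap2b and Nhlh2 were each read by 1 probe on 1 spot, with no other probe to set beside it. On the E9.5 GFP-negative array they stood above every other array by 8.15, 4.61 and 5.19 (log2).

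The 3 largest numbers on the lower side rested on single probes. The probe of Aasdh stood at -0.41 at E9.5 and 9.34 at E8.5 (864.5-fold), but a second probe, which shares 4 bases of genome with it, was level at 0.98 at E9.5 and 1.24 at E8.5. For Zdhhc21 (0.16 at E9.5 and 8.77 at E8.5, 390.6-fold) both other probes were level, differing by 0.17 and 0.25, and for Hmox2 (2.89 at E9.5 and 9.04 at E8.5, 71.1-fold) the other probe differed by 0.01. On the other 5 arrays these 3 probes lay between -2.26 and 3.06. Lamtor1 showed the reverse: its only probe stood at -1.43 on the E9.5 GFP-negative array, against 3.88 at E8.5 and 3.81 to 4.29 on the other 5 arrays. Genes at least 4-fold above all 6 other arrays numbered 75 for E9.5 GFP-negative and 138 for E8.5 GFP-negative, against 31 to 121 for each GFP-positive array. Genes at least 4-fold below all 6 others numbered 2 for E9.5 GFP-negative and 52 for E8.5 GFP-negative, against 0 to 102 for each GFP-positive array.

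Probes also disagreed for members of the lists. Of 43 members past 2-fold with another measured probe, 18 had one inside 2-fold. Besides Gas1 and Notch1, these included Lef1, whose other probe differed by 0.21, Etv2 (-0.80), Krt5 (0.80) and Sox17, whose other probe gave no fold. The reverse was seen for 3 genes described above as inside 2-fold: another probe differed by 2.47 for Sox1, by -1.50 for Tbx6 and by -1.52 for Kdr.

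**Figure D5:**
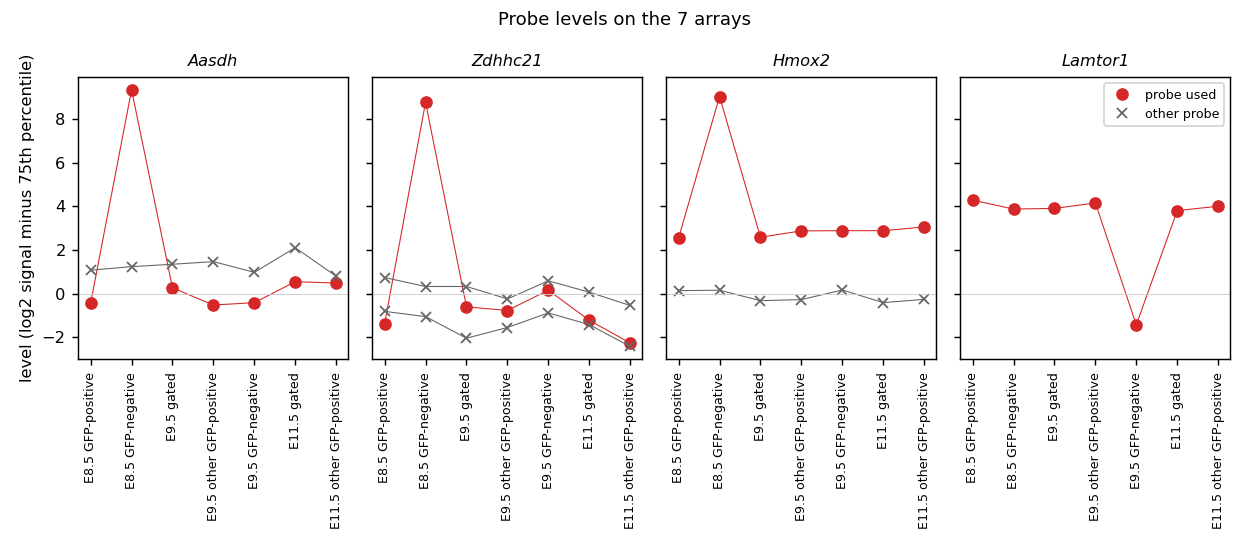
Level of each probe of Aasdh, Zdhhc21, Hmox2 and Lamtor1 on the 7 arrays, in log2 signal minus the array's 75th percentile, in order of stage. Red circles are the probe used and grey crosses other probes of the gene. Single probes jump to 8.77 to 9.34 on the E8.5 GFP-negative array alone, or drop to -1.43 on the E9.5 GFP-negative array alone. The other probes of Aasdh, Zdhhc21 and Hmox2 differ by -0.26 to 0.25 between these 2 arrays, and Lamtor1 has no other probe.

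Set beside the step from E8.5 GFP-positive to E9.5 other GFP-positive cells, the 2 differences had Pearson's r of 0.25 over 19137 genes measured in both. That value runs across genes that are not independent replicates. In the GFP-positive step 9.98% of these 19137 passed 2-fold on the higher side and 3.65% on the lower, and 1.46% and 0.873% passed 4-fold. Of 298 genes at least 4-fold higher in the GFP-negative step and measured in both, 118 (39.6%) were at least 2-fold higher and 17 (5.7%) lower in the GFP-positive step. Of 280 at least 4-fold lower, 70 (25%) were at least 2-fold lower and 47 (16.8%) higher. At 4-fold, 42 higher genes were shared, 14.1% of the GFP-negative list and 15% of the GFP-positive list. For lower genes 35 were shared, 12.5% of the GFP-negative list and 21.0% of the GFP-positive list. Red cell genes had a median of -1.96 in the GFP-negative and 0.26 in the GFP-positive step, and yolk sac endoderm genes had medians of -1.34 and -1.14. Presomitic and tail bud genes had medians of -0.06 and -2.05, and Pax9 differed by 4.41 and at least 4.36.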

How the data were processed

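Array intensities were deposited by the authors as Agilent Feature Extraction output, version 10.7.3.1 per the submitters' processing notes, in which the processed signal is already background-subtracted, per the file headers; the deposited value table equals it for all 62976 spots of each array. From these intensities, levels were computed on the log2 scale relative to each array's 75th percentile over non-control spots, with Python 3.11.15, numpy 2.4.6 and pandas 2.3.3. Spots flagged as outliers were dropped, spots of a probe were averaged, and a probe counted as well above background where at least 0.5 of its spots were. A gene took its brightest probe. Probes were named through RefSeq accession (26419), symbol (3993), synonym (826) or the file's own name (2592), and 21851 stayed unnamed. Where a bound pointed against the brighter side, in 1678 genes, the difference was set to 0 for medians and counts.

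The thresholds were 4-fold for genes and 2-fold for list members. Named genes were the 15 largest measured differences and 10 largest bounds on each side, plus members of 39 gene lists. The former needed a symbol and no other probe more than 2-fold on the opposite side. Members and lists were chosen with earlier results of these data known. Counting was tested on simulated data. Alternatives were quantile, unscaled, detected-probe and housekeeping scaling, normexp correction (limma 3.58.1, R 4.3.3, offset 50), other filters, probe means and retained outlier spots. Some members of the lists are counted but not reported here by name or drawn in the plots that label genes.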

Additional observations from a re-analysis of the deposited data

Results flagged for a closer look

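The stage step E9.5 minus E8.5 lay at least 2-fold on opposite sides in the GFP-negative and the GFP-positive cells for 19 of the 596 members of the gene lists measured in both (3.19%), and for 227 of all 19137 genes measured in both (1.19%). Each step compares 1 array with 1 array, so the difference between the steps was not tested. The GFP-positive step used the E9.5 other cells and leaves out the gated ones. Values below are log2 differences, the GFP-negative step first and the GFP-positive step after it. Both values of Runx1, the first of Dppa5a and the second of Nfe2, Gfi1b and Dhh are bounds, since 1 of their 2 arrays was not well above background. Another probe of Spon1 differed by -0.09 in the GFP-negative step, and another of Rara gave no fold. Among blood and endothelial genes these were Nfe2 (-3.49 and 2.63), Gfi1b (-3.64 and 1.36), Runx1 (-1.70 and 1.35) and Erg (-2.29 and 1.66). Among neural and neural crest genes these were Hes5 (2.99 and -2.03), Mnx1 (1.56 and -3.57), Tubb3 (1.57 and -1.30), Ednrb (1.63 and -2.12), Dlx2 (3.04 and -1.38) and Ngfr (2.28 and -1.28). Among signalling genes these were Lfng (1.58 and -2.46), Lgr5 (1.10 and -1.18), Dhh (-1.10 and 1.25), Nrarp (1.48 and -2.51) and Rara (1.49 and -1.02). The others were Tbx5 (-1.18 and 1.27), Spon1 (1.43 and -1.34), Dppa5a (1.40 and -1.66) and Hoxd1 (1.30 and -2.45).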

How the results depend on the processing

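No paired analysis was possible because each population has 1 array and the labels give no replicate numbers. The 311 higher genes became 572 on the unscaled value table, 101 with normexp correction, 196 when only genes above background on both arrays were kept, 913 with no filter and no bound, and 1767 at 2-fold. The 318 lower genes became 188 unscaled, 95 with normexp, 532 with no filter and no bound, and 1235 at 2-fold. The overall median became 0.35 unscaled. Quantile normalization gave 256 higher and 388 lower genes. No gene past 4-fold turned to the other side in any of the 10 alternatives. Most of these could not have turned one, since they change only the threshold, filter or bound, or shift all genes alike by a small amount. Such a shift could not turn a list median past 2-fold either. Quantile normalization, normexp correction and probe means could have turned a gene. Of 270 genes followed, 1 reversed: Grhl2, at 1.24, was -0.16 as the mean over all its probes. The 10 lists with a median past 2-fold kept their direction in the 9 alternatives that keep the threshold, but with normexp only 5 stayed past 2-fold; the neural tube, early neuron, neural crest, yolk sac endoderm and Xist and Y-linked lists did not. Early neuron genes also dropped inside 2-fold with the filter on both arrays, yolk sac endoderm genes unscaled, and Xist and Y-linked genes with quantile normalization. Dim signal at E8.5, where 56.2% of spots were well above background, limits how large a higher difference can be shown.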

Other observations

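Extracellular matrix genes were at least 2-fold higher for 5 and lower for 2 of 24 measured members, with Col2a1, the cartilage collagen, at 3.15 and Col3a1 at 2.25 (log2 difference, E9.5 minus E8.5), and Col6a1 at -1.29. Of 24 measured imprinted genes, 5 were higher, among them the growth regulator Plagl1 (8.35 at E9.5 and 6.78 at E8.5; its other probes differed by -0.22 to 1.74) and Nnat (1.49), and 1 was lower, Phlda2 (-4.96). Of 20 genes that mark early embryonic timing, 4 were higher, with Nfib at 1.91 (0.0 to 2.64 by its other probes) and Hmga2 at 1.06, and 3 were lower, with Dnmt3l at least 4.98-fold lower and L1td1 at -1.82. The RNA-binding proteins Lin28a and Lin28b differed by -0.61 and -0.45.

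Among immediate early and stress genes, 3 of 16 were higher, with Jun at 1.76, and 1 was lower, Dusp1 at -1.28. The Y-linked genes Ddx3y and Eif2s3y differed by 1.47 and 1.31 and Xist by -0.47. The probe of Nanog, a pluripotency gene, read 9.26 at E9.5 and 9.64 at E8.5, and another probe of it differed by 1.15. The probe used read between 9.05 and 9.73 on every array of the study, GFP-positive cells included. Whether so even a level follows the Nanog transcript was not tested, and it is not read here as high expression of the gene. Of 21851 probes without a gene name, 15659 were measured, and 154 (0.983%) were at least 4-fold higher and 156 (0.996%) at least 4-fold lower.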
